A study of Mus musculus with 6 samples.

Results

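Tbx3 and 9 genes that Wnt signalling drives around the central vein of the liver lobule are described here in bulk RNA sequencing of whole mouse liver. The 10 genes are the transcription factor gene Tbx3, the Wnt feedback genes Axin2, Lgr5, Rnf43, Znrf3 and Nkd1, and the pericentral nitrogen genes Glul, Rhbg, Oat and Slc1a2. They are 10 of the 21512 genes in the deposited table, and all 10 passed the filter on low values. The set was selected on the measured values of Tbx3 in the same contrast, which were low after anti-PD-1. The difference between the groups in these 10 genes is therefore given as a description, with no p-value for any of them. Counts of calls among the 10 are no test of the set.

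The study set 3 mice given an antibody against PD-1, an inhibitory receptor of activated T cells, against 3 mice given an isotype control antibody. All 6 were C57BL/6J mice that ate a high-fat diet (HFD) and received carbon tetrachloride (CCl4), which together model metabolic steatohepatitis (MASH) with fibrosis. That regimen lasted 12 weeks, with an antibody dose at 3-day intervals throughout. Age and sex are not given in the sources used here. For anti-PD-1 replicates 2 and 3 the label of the antibody carries another number after "PD", while the sample titles name PD-1. The question set by the design is what the antibody does to RNA levels in the diseased liver.

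Values are normalized CPM (read counts scaled to a common library size), with SD over 3 mice. Recovered depth was 15528364 to 20779319 reads per library. With 3 mice against 3, an exact two-sided permutation test of a single gene cannot give a p under 0.1. A pair of livers stood apart. Isotype control replicate 1 had the lowest value of the 6 livers in 5 of the 10 genes and in 11 of 28 other pericentral genes, against 19.2% of all 13990 genes tested. It had the highest value in 2 of the 10, Tbx3 and Axin2, against 21.2% of all genes tested. Anti-PD-1 replicate 1 had the highest summed level of T cell markers, 44.7 CPM against 7.32 and 9.57 CPM in the other anti-PD-1 livers. In whole liver, fewer cells of a type and less RNA per cell cannot be told apart.

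The pathway works as follows. Endothelial cells of the central vein secrete Wnt ligands and the R-spondin RSPO3. The ligands bind frizzled receptors with LRP5 or LRP6 on nearby hepatocytes, which frees beta-catenin from its destruction complex so that it can act with TCF and LEF factors in the nucleus. R-spondins act through LGR4 and LGR5 to hold back RNF43 and ZNRF3, a pair of ubiquitin ligases that clear frizzled from the cell surface. In mouse liver, beta-catenin keeps pericentral hepatocytes in a programme of glutamine synthesis and drug metabolism, and carbon tetrachloride injures these same cells because they activate it through CYP2E1.

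Promoter sequences are shown for 4 members because Axin2 and Rnf43 lay below the controls in every anti-PD-1 liver, as Tbx3 did, and Glul and Slc1a2 varied most among the controls. The sequences are the 250 bases before the RefSeq start site, on build GRCm38.p6, from a table that matched 6 of the 10 members. The submitters' notes name another build, so the coordinates belong to the RefSeq table only. Tbx3, Lgr5, Znrf3 and Rhbg had no entry. Capitals mark the core of the TCF and LEF motif, CTTTGA, or TCAAAG on the other strand, and all letters outside it are in lower case.
Axin2, chr11:108920099-108920348, plus strand: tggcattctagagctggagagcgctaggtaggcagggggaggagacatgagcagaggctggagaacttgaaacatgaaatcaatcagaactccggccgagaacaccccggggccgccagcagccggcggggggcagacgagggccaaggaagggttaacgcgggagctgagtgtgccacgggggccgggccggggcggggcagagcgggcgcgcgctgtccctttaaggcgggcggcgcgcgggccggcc
Rnf43, chr11:87662837-87663086, plus strand: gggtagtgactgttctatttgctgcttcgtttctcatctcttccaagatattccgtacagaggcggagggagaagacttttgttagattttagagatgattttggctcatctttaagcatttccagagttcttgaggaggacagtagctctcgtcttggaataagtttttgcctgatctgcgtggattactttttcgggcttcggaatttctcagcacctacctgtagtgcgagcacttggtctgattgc
Glul, chr1:153899679-153899928, plus strand: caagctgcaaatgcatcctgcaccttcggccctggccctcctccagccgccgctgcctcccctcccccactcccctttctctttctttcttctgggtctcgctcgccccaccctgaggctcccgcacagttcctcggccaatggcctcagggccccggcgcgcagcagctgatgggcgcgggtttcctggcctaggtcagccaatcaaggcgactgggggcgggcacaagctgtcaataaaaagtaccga
Slc1a2, chr2:102706188-102706437, plus strand: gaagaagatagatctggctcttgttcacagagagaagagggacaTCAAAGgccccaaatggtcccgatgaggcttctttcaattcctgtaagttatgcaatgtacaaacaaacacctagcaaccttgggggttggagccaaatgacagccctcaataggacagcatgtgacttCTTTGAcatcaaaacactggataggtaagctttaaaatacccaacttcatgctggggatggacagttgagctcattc
Of the 7 promoters of the 6 matched members, 1 held the core. The Slc1a2 promoter held it in 2 places, starting 206 and 77 bases before the start site, once on each strand. Among 32851 promoters of the same length, 13.8% held it. The absence of these letters from a window says nothing about binding elsewhere.

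Tbx3 encodes a T-box transcription factor that acts mostly as a repressor and, in mouse liver, marks pericentral hepatocytes in which beta-catenin is active. It had 14.4, 12.0 and 9.36 CPM in anti-PD-1 replicates 1 to 3, against 40.7, 37.9 and 24.2 CPM in isotype control replicates 1 to 3. Every anti-PD-1 liver lay below every control liver. The means were 11.9 ± 2.52 CPM after anti-PD-1 and 34.3 ± 8.86 CPM in controls (SD, n = 3 each), so the anti-PD-1 mean was 34.8% of the control mean. The log2 fold change was -1.47 ± 0.23 (SE) on log2(CPM + 0.5), and -1.33 without isotype control replicate 1, the highest liver. Of the 13990 genes tested, 19 had a log2 fold change under -1.47, a rank that restates how Tbx3 was picked. Behind the CPM values stand 300, 180 and 181 reads of anti-PD-1 replicates 1 to 3, against 755, 701 and 481 reads of isotype control replicates 1 to 3.

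**Figure D1:**
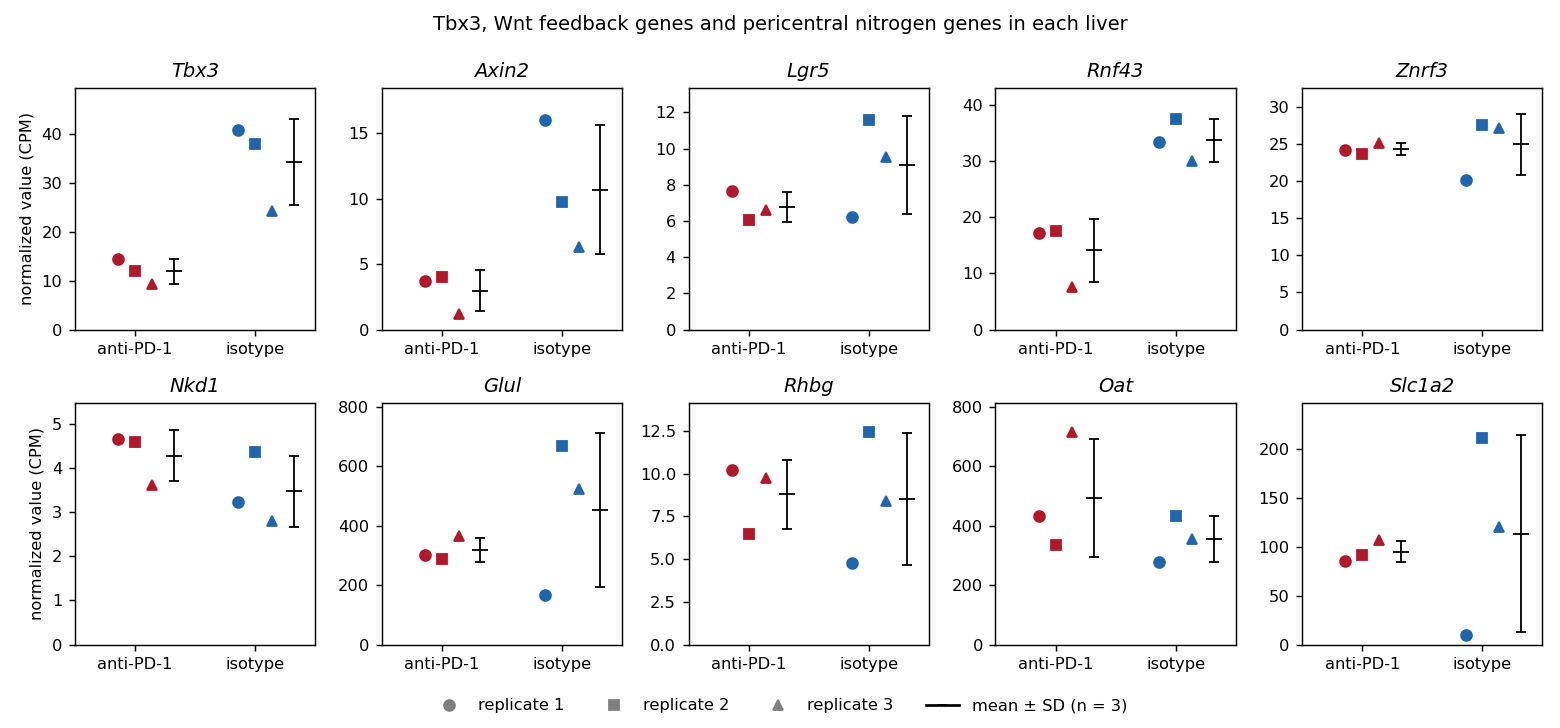
Normalized value (CPM, linear axes from 0) of the 10 genes in each liver, anti-PD-1 in red and isotype control in blue, with marker shape for the replicate and bars for the mean ± SD of 3 mice. Tbx3, Axin2 and Rnf43 have all 3 anti-PD-1 livers below all 3 control livers, and isotype control replicate 1 is far below the other controls for Glul and Slc1a2.

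Among the Wnt feedback genes, Axin2 and Rnf43 shared the separation seen for Tbx3, while Lgr5, Znrf3 and Nkd1 did not. Axin2 encodes a scaffold of the destruction complex and is a widely used readout of beta-catenin activity. It had 3.70, 4.06 and 1.19 CPM in anti-PD-1 replicates 1 to 3, against 16.02, 9.74 and 6.28 CPM in isotype control replicates 1 to 3. The groups did not overlap, and the lowest value, in anti-PD-1 replicate 3, came from 23 reads. The anti-PD-1 mean was 27.9% of the control mean, with a log2 fold change of -1.72 ± 0.45 (SE), which was -1.26 without anti-PD-1 replicate 3.

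Rnf43, one of the ubiquitin ligases that remove frizzled, had 17.1, 17.6 and 7.61 CPM in anti-PD-1 replicates 1 to 3. Isotype control replicates 1 to 3 had 33.5, 37.6 and 30.0 CPM. The groups did not overlap, and anti-PD-1 replicate 3 was again the lowest liver. The log2 fold change was -1.31 ± 0.30 (SE), and -0.93 without anti-PD-1 replicate 3.

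Znrf3, the paralogue of Rnf43 with the same task at the membrane, had 24.2, 23.6 and 25.1 CPM in anti-PD-1 livers, against 20.1, 27.5 and 27.0 CPM in control livers. The anti-PD-1 values lay inside the control range. The log2 fold change was -0.02 ± 0.14 (SE), inside the spread between livers. Whether the 2 paralogues differ in their response was not tested.

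Lgr5, the R-spondin receptor gene of pericentral hepatocytes, had 7.68, 6.06 and 6.62 CPM in anti-PD-1 livers, against 6.20, 11.6 and 9.55 CPM in control livers. The groups overlapped through isotype control replicate 1, and the log2 fold change of -0.36 ± 0.23 (SE) was -0.60 without that liver. Nkd1, whose protein binds dishevelled and restrains the Wnt signal, had 4.66, 4.59 and 3.62 CPM in anti-PD-1 livers, against 3.24, 4.38 and 2.82 CPM in control livers. Its groups overlapped too, with a log2 fold change of 0.28 ± 0.21 (SE).

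The 4 nitrogen genes had overlapping groups. For Glul, Rhbg and Slc1a2 the SD was larger in controls, and for Oat it was larger after anti-PD-1 (199 CPM, against 75.9 CPM in controls). Glul encodes glutamine synthetase, which fixes ammonium in the last hepatocytes before the central vein. It had 302, 287 and 365 CPM in anti-PD-1 replicates 1 to 3, against 167, 669 and 524 CPM in isotype control replicates 1 to 3. The control livers lay on both sides of the anti-PD-1 livers. The log2 fold change was -0.30 ± 0.46 (SE), and -0.90 without isotype control replicate 1.

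Slc1a2, which encodes a glutamate transporter, had 85.9, 92.1 and 107 CPM in anti-PD-1 livers, against 9.50, 211 and 120 CPM in control livers. Isotype control replicate 1 stood more than an order of magnitude below the other controls, whose mean was 17.4 times its value. The direction of the group difference therefore depends on the scale. The means were 95.1 ± 10.9 CPM after anti-PD-1 and 113 ± 101 CPM in controls (SD, n = 3 each), while the log2 fold change was 0.59 ± 0.98 (SE), and -0.75 without isotype control replicate 1.

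Rhbg, an ammonium transporter gene, had 10.2, 6.46 and 9.73 CPM in anti-PD-1 livers, against 4.75, 12.4 and 8.40 CPM in control livers. Isotype control replicate 1 was again the lowest, and the sign of the log2 fold change turned without it, with 0.11 ± 0.33 (SE) over 6 livers and -0.23 without that liver. Oat, whose enzyme turns ornithine towards glutamate, had 432, 335 and 717 CPM in anti-PD-1 livers, against 279.6, 431 and 356 CPM in control livers. Its anti-PD-1 replicate 3 was the highest liver, and the log2 fold change of 0.42 ± 0.28 (SE) was 0.12 without it.

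**Figure D2:**
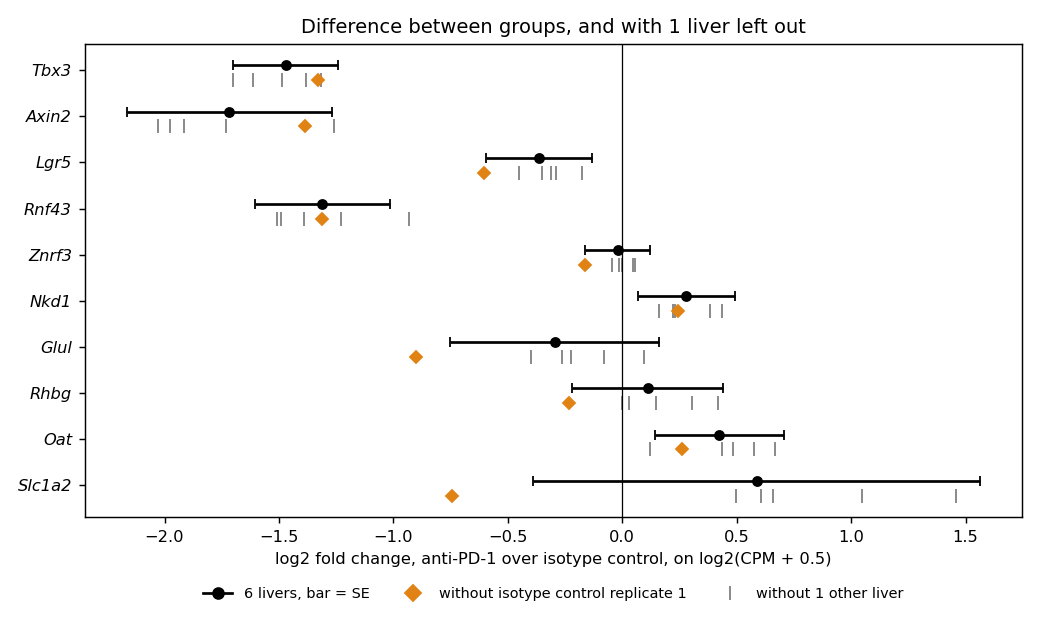
Log2 fold change (anti-PD-1 over isotype control, on log2(CPM + 0.5)) of the 10 genes, with bars for the SE, grey ticks for fits with 1 other liver left out and orange diamonds for fits without isotype control replicate 1. Tbx3, Axin2 and Rnf43 stay below -0.9 in each fit, and Slc1a2 runs from -0.75 to 1.46.

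In 3 of the 10 genes every anti-PD-1 value lay below every control value, which held for 9.98% of all genes tested, and in 0 of 10 every anti-PD-1 value lay above, which held for 7.13%. Since this contrast chose the set, nothing is read from these counts or from the calls that follow, which do not test the members. By limma, with Benjamini-Hochberg adjustment over all genes, 0 of the 10 passed an adjusted p of 0.05, as did 0.00715% of genes, and 3 were lower at an unadjusted p under 0.05, as were 6.24% (11.3% in either direction). With the replicate number as a block, though nothing says that it pairs the mice, Tbx3 alone of the 10 passed (0.286% of genes). edgeR called 0 of the 10 (0.0% of genes) and DESeq2 called 3, Tbx3, Axin2 and Rnf43 (1.83% of genes). The median log2 fold change of the 10 genes was -0.16, against 0.00 for all genes tested, and -0.67 without isotype control replicate 1.

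The spread within each group does not use the contrast that chose the set. Axin2, Rnf43 and Tbx3 are the 3 genes whose groups did not overlap, and were set together after the values were seen. Correlations of their deviations from the group means over the 6 livers were 0.67 to 0.86 for the 3 pairs. How common such correlations are among all genes was not tested. Nkd1, whose log2 fold change was positive, correlated at 0.73 with Tbx3, 0.71 with Rnf43 and 0.55 with Axin2. Tbx3 and Rnf43, at 0.67, were thus no closer. In anti-PD-1 replicate 3, Axin2, Rnf43 and Tbx3 lay below their group mean by -0.92 (Axin2), -0.76 (Rnf43) and -0.31 (Tbx3) on the log2 scale. Oat lay 0.61 above its group mean in that same liver.

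For Glul, Rhbg, Slc1a2 and Lgr5 the correlations of these deviations were 0.86 to 0.99 for 6 pairs. Znrf3, a feedback gene with a small spread, was as close to them, at 0.99 (Glul), 0.98 (Slc1a2), 0.90 (Lgr5) and 0.87 (Rhbg). In isotype control replicate 1, Glul and the 3 genes grouped with it lay below their group mean by -1.22 (Glul), -0.69 (Rhbg), -2.66 (Slc1a2) and -0.48 (Lgr5), whereas Axin2 and Tbx3 lay 0.66 and 0.28 above theirs. Between Axin2, Rnf43 and Tbx3 on the one side and Glul, Rhbg, Slc1a2 and Lgr5 on the other, the 12 pairs correlated at -0.62 to 0.11. The sets were drawn after the values were seen, the 6 livers share their group means, and isotype control replicate 1 has the lowest value of its group for each of Glul, Rhbg, Slc1a2, Lgr5 and Znrf3, so these correlations describe these livers only.

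**Figure D3:**
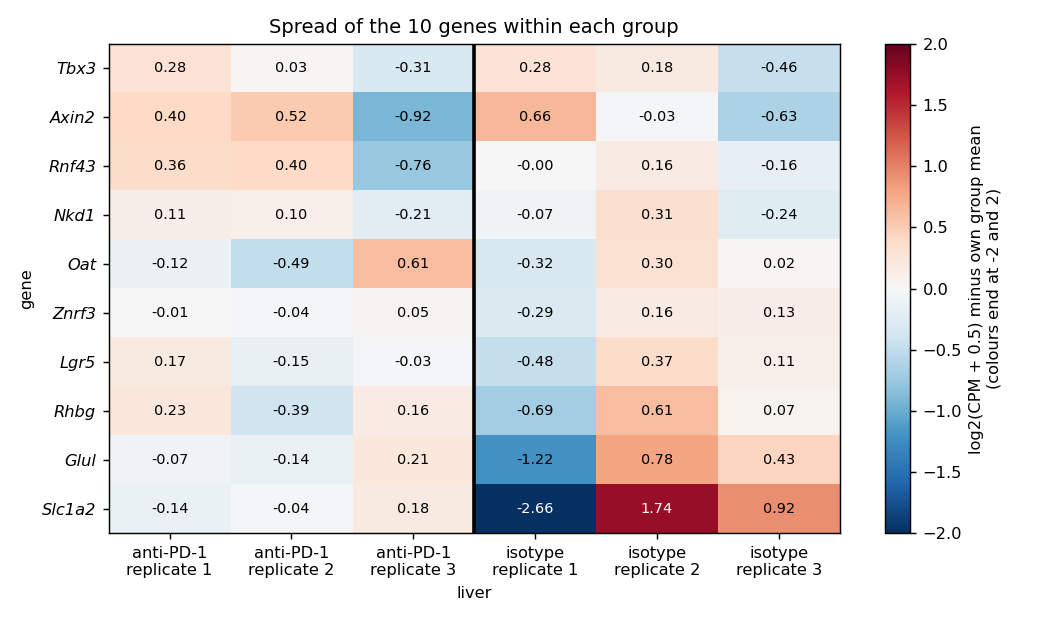
Deviation of each gene from its own group mean on log2(CPM + 0.5), by liver, anti-PD-1 on the left and isotype control on the right, with the value in each cell. Anti-PD-1 replicate 3 is low for Axin2 (-0.92) and Rnf43 (-0.76), and isotype control replicate 1 is low for Slc1a2 (-2.66) and Glul (-1.22).

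The spread within groups also ranked the genes. The pooled within-group SD on the log2 scale was 1.66 for Slc1a2, 0.77 for Glul and 0.72 for Axin2, against a median of 0.20 over all genes tested. It was 0.18 for Znrf3, the steadiest of the 10, and 0.35 for Tbx3.

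Levels were compared between genes per kilobase of exon, using gene lengths of an older annotation. After anti-PD-1, Oat (209.6 ± 84.2 CPM per kb) and Glul (95.8 ± 12.4) were highest, followed by Slc1a2 (7.24 ± 0.83), Rhbg (4.54 ± 1.05), Znrf3 (3.08 ± 0.10) and Rnf43 (2.15 ± 0.86). Tbx3 (1.80 ± 0.38), Nkd1 (0.94 ± 0.13), Lgr5 (0.66 ± 0.08) and Axin2 (0.54 ± 0.28) came last. In controls the order was Oat (150.7 ± 32.2), Glul (136 ± 77.8), Slc1a2 (8.64 ± 7.68), Tbx3 (5.18 ± 1.34), Rnf43 (5.13 ± 0.58) and Rhbg (4.40 ± 1.99). Znrf3 (3.16 ± 0.53), Axin2 (1.94 ± 0.90), Lgr5 (0.89 ± 0.26) and Nkd1 (0.76 ± 0.18) followed. Neighbours whose ranges overlapped were Rnf43 with Tbx3 and Lgr5 with Axin2 after anti-PD-1. In controls all neighbours overlapped except Glul with Slc1a2 and Axin2 with Lgr5. Tbx3 thus ranked below Rhbg, Znrf3 and Rnf43 after anti-PD-1, and above these 3 genes in controls.

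Upstream of these genes, the ligands, receptors and intracellular parts of the pathway gave no call. By limma 0.00715% of all 13990 genes tested passed, so a lack of calls is not read as a result about the pathway. Across all pathway and zonation lists, 0 of 135 tested genes passed by limma in either direction. At an unadjusted limma p under 0.05, 8 were higher and 8 lower, against 705 and 873 of all genes tested. edgeR called 0 of these 135 (0.0% of all genes tested). DESeq2 called 3 (1.83% of all genes tested), of which 1 was higher and 2 were lower. Over all genes tested, 7062 log2 fold changes were positive and 6928 negative.

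Of 25 Wnt ligand, R-spondin and ligand-processing genes, 10 were tested and 0 passed in either direction, with 3 positive and 7 negative log2 fold changes and a median of -0.13. Wnt2 and Wnt9b, the ligands of the central vein, had 5.05 ± 0.92 and 2.30 ± 0.68 CPM after anti-PD-1, against 5.08 ± 0.33 and 2.86 ± 1.22 CPM in controls. The R-spondin gene Rspo3 had 6.87, 4.86 and 6.52 CPM in anti-PD-1 livers, against 7.07, 7.63 and 7.14 CPM in control livers, with groups that did not overlap and a log2 fold change of -0.25 ± 0.17 (SE) (limma adjusted p = 0.612). Wnt5b, a ligand of the beta-catenin-independent branch, had the smallest p of the list, at 2.93 ± 0.12 CPM after anti-PD-1 and 4.47 ± 0.52 CPM in controls (limma adjusted p = 0.343). Wls, which carries Wnt proteins to the surface, had 27.9, 13.8 and 17.6 CPM in anti-PD-1 livers, against 15.9, 19.8 and 15.3 CPM in control livers, with overlapping groups.

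Of 17 receptor genes, 12 were tested and 0 passed, with 5 positive and 7 negative log2 fold changes and a median of -0.05. Lgr4, the broadly expressed R-spondin receptor, had 85.1, 117 and 129 CPM in anti-PD-1 livers, against 72.6, 76.6 and 87.3 CPM in control livers (log2 fold change 0.47 ± 0.16 SE, limma adjusted p = 0.363). Its groups overlapped. The frizzled gene Fzd7 had 11.6, 10.1 and 6.83 CPM in anti-PD-1 livers, against 25.6, 14.1 and 12.3 CPM in control livers, with groups that did not overlap (-0.79 ± 0.30 SE, limma adjusted p = 0.385). The coreceptor gene Lrp6 was at 228 ± 37.2 CPM after anti-PD-1 and 206 ± 12.0 CPM in controls, and Fzd5 at 10.6 ± 1.98 and 11.0 ± 1.60 CPM.

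In the destruction complex list 0 of 14 tested genes passed, with 10 positive log2 fold changes and a median of 0.04. Of the complex, 4 genes had every anti-PD-1 value above every control value and 1 had every value below. Over all genes tested this held for 7.13% and 9.98%. Apc, its scaffold, was at 97.5 ± 3.92 CPM after anti-PD-1 and 97.0 ± 4.62 CPM in controls, and the kinase gene Gsk3b at 102 ± 2.41 and 112 ± 6.14 CPM. Of beta-catenin and its nuclear partners 0 of 14 passed, with 10 negative log2 fold changes and a median of -0.14. In 4 of these 14 every anti-PD-1 value lay below every control value, and in 0 above, against the same 9.98% and 7.13%. Whether either list differs from these shares was not tested. Ctnnb1, the beta-catenin gene, had 173, 161 and 182.22 CPM in anti-PD-1 livers, against 207, 182.24 and 199 CPM in control livers, a narrow separation with a log2 fold change of -0.19 ± 0.10 (SE) (limma adjusted p = 0.524). Among the factors that bind DNA with beta-catenin, Tcf7l2 was at 19.0 ± 1.70 CPM after anti-PD-1 and 19.9 ± 2.17 CPM in controls, and Tcf7l1 at 3.13 ± 0.41 and 4.30 ± 0.33 CPM. Of 16 secreted antagonists and their receptors 4 were tested and 0 passed, with a median of 0.15, and Notum, an enzyme that inactivates Wnt ligands and is itself a Wnt target, was at 15.9 ± 2.88 CPM after anti-PD-1 and 15.7 ± 4.29 CPM in controls.

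Other Wnt targets and zonated genes set the members in context. Of 12 further Wnt targets 8 were tested and 0 passed, with 3 positive log2 fold changes and a median of -0.24. That median was 0.03 with a filter of 5 CPM. Leaving out anti-PD-1 replicate 1 gave -0.47, and leaving out isotype control replicate 1 gave -0.10. Ccnd1, the cyclin D1 gene, was at 50.1 ± 12.4 CPM after anti-PD-1 and 75.2 ± 14.3 CPM in controls (limma adjusted p = 0.348), and Tnfrsf19 at 8.79 ± 1.59 and 13.7 ± 4.46 CPM (0.467). Myc, named after its values were seen, had 59.1, 100.5 and 84.95 CPM in anti-PD-1 livers, against 9.50, 60.8 and 89.1 CPM in control livers. Its log2 fold change of 1.076 (limma adjusted p = 0.612) was 0.11 without isotype control replicate 1. Sp5, a target that few other signals induce, fell under the filter, with 0.240, 0.266 and 0.310 CPM in anti-PD-1 livers and 0.324, 0.595 and 0.754 CPM in control livers.

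Of 28 other pericentral hepatocyte genes 28 were tested and 0 passed by limma, with 15 positive log2 fold changes. The median was 0.14, and -0.07 without isotype control replicate 1. In 4 of the 28 every anti-PD-1 value lay below every control value, and in 0 above. Over all genes tested this held for 9.98% and 7.13%. Cyp2e1, the enzyme that activates carbon tetrachloride, had 3429, 4435 and 4415 CPM in anti-PD-1 livers, against 2031, 4468 and 3902 CPM in control livers. Cyp1a2 was at 358 ± 51.0 CPM after anti-PD-1 and 295 ± 38.9 CPM in controls, Gulo at 389 ± 31.8 and 338 ± 37.4 CPM, and Lect2 at 64.6 ± 13.1 and 65.9 ± 8.97 CPM. Cldn2, a tight junction gene, was at 74.1 ± 9.64 CPM after anti-PD-1 and 93.2 ± 2.82 CPM in controls, with groups that did not overlap (limma adjusted p = 0.348). DESeq2 called 2 genes of this list lower, and 1.83% of all genes tested in either direction. The 2 were Cyp7a1, which starts the classical route of bile acid synthesis, and Nr1i3, the nuclear receptor CAR. Nr1i3 was at 31.0 ± 4.74 CPM after anti-PD-1 and 53.9 ± 9.03 CPM in controls (limma adjusted p = 0.218, DESeq2 adjusted p = 0.00826), and Cyp7a1 had a log2 fold change of -1.45 ± 0.22 (SE) (limma adjusted p = 0.129).

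Periportal genes lie at the opposite end of the lobule, and Wnt signalling keeps them low near the central vein. Of 23 such genes 0 passed by limma, with a median log2 fold change of 0.26. It was positive for 20, against 7062 of all 13990 genes tested. The 23 genes were read in the same livers, so this count is no test of the list. In 1 of the 23 every anti-PD-1 value lay above every control value, and in 1 below, against 7.13% and 9.98% of all genes tested. At an unadjusted limma p under 0.05, 2 were higher and 1 lower, against 705 and 873 of all 13990 genes tested. DESeq2 called 1 (1.83% of all genes tested), G6pc, the glucose-6-phosphatase gene. Cyp2f2 was at 945 ± 229 CPM after anti-PD-1 and 808 ± 137 CPM in controls, Hal, the histidase gene, at 501 ± 132 and 372 ± 108 CPM, and Cps1, the first enzyme of the urea cycle, at 9134 ± 1855 and 6846 ± 348 CPM. The 4 midlobular genes had negative log2 fold changes and 0 passed. Their median was -0.31, which shrank to -0.08 once anti-PD-1 replicate 1 was left out.

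**Figure D4:**
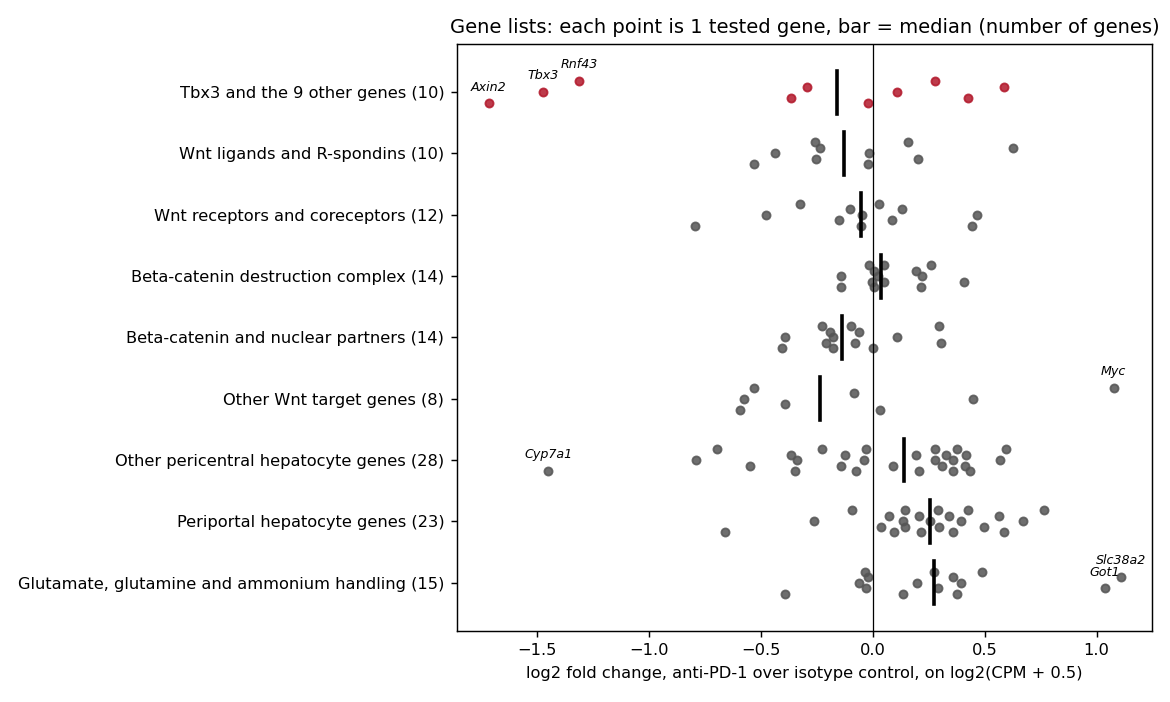
Log2 fold change (anti-PD-1 over isotype control, on log2(CPM + 0.5)) of each tested gene in 8 lists and in the set of 10 genes, with a bar for the median and the number of genes in brackets. The set of 10 (red) holds Axin2, Tbx3 and Rnf43 below -1.3, and Cyp7a1 is the lowest of the other pericentral genes at -1.45. Above 0 lie 20 of 23 periportal genes, against 7062 of all 13990 genes tested, a count that is no test of the list.

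The partners of Glul, Slc1a2, Rhbg and Oat in glutamate and ammonium metabolism were also read. Of 19 such genes 15 were tested and 0 passed, with 10 positive log2 fold changes and a median of 0.27. In 5 of the 15 every anti-PD-1 value lay above every control value, and in 0 below, against 7.13% and 9.98% of all genes tested. Isotype control replicate 1 was the lowest liver in 8 of the 15 (53.3%, against 19.2% of all genes tested), and the median was 0.18 without it. Slc38a2, an amino acid transporter gene, had 692, 929 and 1149 CPM in anti-PD-1 livers, against 231, 522 and 610.0 CPM in control livers (log2 fold change 1.11 ± 0.36 SE, limma adjusted p = 0.343). Got1, the cytosolic aspartate aminotransferase gene, had 608, 832 and 1203 CPM in anti-PD-1 livers, against 252, 465 and 598 CPM in control livers (1.04 ± 0.35 SE, limma adjusted p = 0.348). Isotype control replicate 1 was the lowest liver for both, and without it their log2 fold changes were both 0.68. Prodh, which degrades proline towards glutamate beside Oat, was at 149 ± 12.1 CPM after anti-PD-1 and 116 ± 19.2 CPM in controls. The glutamine transporter gene Slc38a3 was at 1478 ± 265 CPM after anti-PD-1 and 1222 ± 318 CPM in controls, and Gls2, the periportal glutaminase gene, at 416 ± 91.7 and 373 ± 24.9 CPM.

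Around Tbx3 itself, 3 other T-box genes were tested and 0 passed. Tbx2, its closest relative, was at 5.43 ± 0.10 CPM after anti-PD-1 and 5.03 ± 1.14 CPM in controls. The antisense transcript gene Tbx3os1 was at 1.98 ± 0.52 CPM after anti-PD-1 and 2.77 ± 1.37 CPM in controls, with overlapping groups. The kit keeps strand, but it is not stated that the counting used it, so reads of Tbx3 and Tbx3os1 may not be fully separated. Med13l, a Mediator gene on the same chromosome, had 56.2, 63.0 and 60.0 CPM in anti-PD-1 livers, against 35.7, 53.3 and 42.0 CPM in control livers (0.46 ± 0.15 SE, limma adjusted p = 0.339). Genes reported as repressed by TBX3 were also read, and those given here did not pass by limma. The cell cycle inhibitor gene Cdkn1a was at 19.9 ± 7.62 CPM after anti-PD-1 and 15.1 ± 11.3 CPM in controls, and Cdh1, the E-cadherin gene, at 77.9 ± 15.3 and 76.4 ± 26.1 CPM, while Cdkn2a was under 0.5 CPM in all 6 livers and was not tested.

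The 5 genes whose profile was most like that of Tbx3, by Pearson correlation of log2(CPM + 0.5) over the 6 livers, which share their group difference, were Tada2a (0.997), Zfp27 (0.996), Kdm8 (0.995), Zfp451 (0.994) and 1700020I14Rik (0.993). Tada2a, an adaptor of histone acetyltransferase complexes, was at 3.75 ± 0.21 CPM after anti-PD-1 and 4.70 ± 0.33 CPM in controls. Kdm8 was at 0.70 ± 0.20 CPM after anti-PD-1 and 2.21 ± 0.71 CPM in controls, and Zfp27 at 3.13 ± 0.53 and 6.19 ± 1.31 CPM. Axin2 at 0.95 ranked 154 and Rnf43 at 0.92 ranked 256 among 13950 genes, while Glul (0.05), Lgr5 (0.48) and Slc1a2 (-0.34) lay far from Tbx3.

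Cell type markers were read beside the Tbx3 group. The summed level of 8 central vein endothelial markers was 54.2 to 58.1 CPM after anti-PD-1 and 56.9 to 86.7 CPM in controls, and that of 8 sinusoidal endothelial markers 493 to 551 and 509 to 544 CPM. The sum of 5 mature hepatocyte markers was 58666 to 71553 CPM after anti-PD-1 and 59321 to 82636 CPM in controls, that of 7 stellate cell markers 745 to 1166 and 749 to 980.1 CPM, and that of 6 cholangiocyte markers 78.8 to 137 and 94.9 to 238 CPM. T cell markers summed to 7.32 to 44.7 CPM after anti-PD-1 and 3.02 to 4.05 CPM in controls, the one list whose sums did not overlap. Of these markers 2 were tested, Cd3e and Cd8a. DESeq2 called both higher (1.83% of all genes tested in either direction) while limma called 0. The 6 Kupffer cell markers summed to 148 to 197 and 153 to 358 CPM, highest in isotype control replicate 1, 5 B and plasma cell markers to 4.86 to 24.4 and 4.63 to 13.4 CPM, and 5 monocyte and macrophage markers to 139 to 837 and 127 to 256 CPM. Anti-PD-1 replicate 1 gave the highest anti-PD-1 sum for T cell, B and plasma cell, monocyte and macrophage, stellate cell, cholangiocyte and Kupffer cell markers. It gave the lowest for mature hepatocyte markers. Without that liver the median log2 fold change of the monocyte and macrophage markers was -0.01, against 0.65 with it. Of the markers in all these lists, 0 were at 0 in any liver. The log2 fold change was negative for 8 of 8 central vein endothelial markers (median -0.20) and 6 of 6 Kupffer cell markers (median -1.70). Over all genes tested it was negative for 6928 of 13990. Markers of a list were read in the same livers, so these counts are no test of a list. The central vein markers include Wnt2, Wnt9b and Rspo3, so they are not independent of the ligand list. By limma 0 of either list passed. Of the Kupffer cell markers, 5 were lower at an unadjusted limma p under 0.05, against 6.24% of all genes tested. Isotype control replicate 1 was the highest liver for 6 of the 6, against 21.2% of all genes tested. Their median was -1.50 without that liver. With the replicate block 1 passed (0.286% of all genes tested), the scavenger receptor gene Cd163 (limma adjusted p = 0.0298). DESeq2 called 3 lower (1.83% of all genes tested in either direction), Cd163, Timd4 and Marco, the last named after its values were seen. Of the 6 Kupffer cell markers, 5 had more than 3 reads in every liver. Cd163 was at 0.65 ± 0.69 CPM after anti-PD-1 and 10.1 ± 6.22 CPM in controls. Without anti-PD-1 replicate 1, the liver richest in T cell markers, the log2 fold changes of Tbx3, Axin2 and Rnf43 were -1.61, -1.92 and -1.49. The part of cell composition in these results was not tested.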

How the data were processed

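Whole-liver RNA of 6 mice was sequenced as directional libraries after ribosomal RNA depletion, per the labels' protocols. Tools named in the submitters' processing notes are edgeR, Bowtie2, RSEM 1.3.0 and Trimmomatic 0.38, with build GRCm39; their roles are not given. What the authors deposited is a normalized signal for each gene in each library. For 100% of values it was a whole multiple of the value of 1 read, within 0.001 read, so whole reads were recovered. They may be rounded estimates. Column sums match CPM of a scaled library. Symbols were matched by gene identifier for 21407 of 21512 genes. Every gene has at least 6 reads in total. A limit of 3 reads is 0.144 to 0.2 CPM and covers counting error only.

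Genes with at least 1 CPM in at least 3 libraries (13990) were tested with limma 3.58.1 in R 4.3.3, with an intensity trend, on log2(CPM + 0.5), two-sided, calling genes at a Benjamini-Hochberg adjusted p under 0.05. These fold changes understate changes of low genes. P-values measure the spread between these 6 mice only. On the recovered reads edgeR 4.0.16 called 0 genes and DESeq2 1.42.0 called 256. The fits of limma, limma with the replicate block, edgeR and DESeq2 were tested on simulated counts, and the other alternatives were not. Per the labels both groups carry replicate numbers 1 to 3. Nothing says that these numbers pair the mice, so the main fit is unpaired and the replicate block is an alternative. Libraries that share a number deviated together from their group means, with correlations of 0.15, 0.13 and 0.25. That met a rule of every correlation over 0.1. Deviations within a group offset each other, so these correlations are not independent and cannot show a pairing. With that replicate block 27 genes were higher and 13 lower, against 1 and 0 without it.

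The members and the lists were chosen with earlier results of these data known. The genes named are the members, 37 genes set by name, up to 2 genes of smallest p per list and 5 most like Tbx3, of which the text gives a part. One result is not reported here.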

Additional observations from a re-analysis of the deposited data

How the results depend on the processing

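Alternatives changed the pseudocount, the filter, the scaling, the limma settings, the tool and the replicate block, or dropped 1 library at a time. Tbx3, Axin2 and Rnf43 kept negative log2 fold changes under all 17 alternatives, from -1.70 to -1.32 for Tbx3, -2.03 to -1.26 for Axin2 and -1.51 to -0.93 for Rnf43. Of 169 alternative values of the 10 genes 8 had another sign than the main fit, all among Znrf3, Glul, Rhbg and Slc1a2. Of the 169, 0 moved by more than the gene's own within-group SD. That SD is wide where 1 liver stands apart, at 1.66 for Slc1a2 and 0.77 for Glul, so the count says little about stability. Slc1a2, at 0.59 in the fit reported, was -0.26 by edgeR, -0.25 by DESeq2 and -0.75 without isotype control replicate 1. The cause of the low value in that liver was not tested. Scaling by library total left Tbx3 at -1.49 and quantile normalization at -1.48.

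Over all genes limma called 1 higher and 0 lower. The counts were 27 and 13 with the replicate block, 0 and 0 by edgeR, 147 and 109 by DESeq2, and 0 to 24 higher and 0 to 6 lower with 1 library left out, most without anti-PD-1 replicate 1 (24 and 6) and 0 and 0 without anti-PD-1 replicate 3. The block changed no call in the pathway lists, and DESeq2 called 3 genes in them. Of 221 alternative list medians 16 had another sign than the reported one. With 1 library left out the median ran from -0.21 to -0.02 for ligands, -0.04 to 0.01 for receptors, 0.01 to 0.27 for antagonists, -0.02 to 0.10 for the destruction complex, -0.20 to -0.07 for nuclear partners, -0.07 to 0.22 for other pericentral genes and 0.11 to 0.41 for periportal genes. The median of the genes near Tbx3 was 0.18 with the filter of 5 CPM, which left fewer genes. At this depth the lowest member value rests on 23 reads.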
